A study of Homo sapiens with 24 samples.

Results

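The genes described here form the contact between a cell and the matrix around it. A set of 53 genes was chosen by name and role, with earlier results of these data known, out of the 60675 genes counted. It comprised 6 integrin alpha subunits, 6 integrin beta subunits, 8 laminin chains, 6 collagen IV chains, 7 other collagen chains, 8 matrix glycoproteins and proteoglycans, 10 focal adhesion proteins and 2 caveolins. RNA-seq was performed on the castration-resistant prostate cancer (PCa) cell lines LNCaP:C4-2 (LNCaP:C42 in the sample labels), a derivative of the androgen-dependent line LNCaP, and 22Rv1, which was derived from a xenograft. Cells of both lines were transfected with a non-targeting siRNA pool (siSCR) or with a pool against METTL3 (siMETTL3), the catalytic subunit of the RNA m6A methyltransferase, in medium with charcoal-stripped serum, which is depleted of steroids. R1881 (1 nM), a synthetic androgen, or its vehicle, ethanol, was then given for 72 h. This gave 8 groups of 3 libraries, 24 in all, every one of them from siRNA-transfected cells. The labels do not say whether the libraries of a group came from separate cultures, so p-values measure the spread between these libraries, which may be technical.

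Integrins are heterodimers of an alpha and a beta subunit that bind matrix proteins outside the cell and link them to the actin cytoskeleton inside it. Laminins, which are trimers of an alpha, a beta and a gamma chain, and collagen IV form the 2 networks of the basement membrane, and perlecan (HSPG2), agrin (AGRN) and nidogen (NID1) connect to them. In the normal prostate, basal epithelial cells rest on this membrane through integrins that bind laminin. Clusters of bound integrins assemble focal adhesions, in which talin, vinculin, paxillin, zyxin, filamin and alpha-actinin join the receptor to actin and the focal adhesion kinase (PTK2) signals.

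Libraries held between 15716224 and 21306019 counted fragments, and the 53 genes took 0.270% to 0.434% of them. Levels are given in CPM (counts scaled to a library total of 1e6, after TMM scaling over all 24 libraries) for comparisons within a gene, and in RPKM (CPM divided by the exonic length in kilobases) for comparisons between genes. A group whose libraries all held at most 3 counts of a gene, 0.141 to 0.191 CPM before TMM scaling, was treated as at the floor. COL4A1 and ITGB3 were at the floor in all libraries of both lines (exons of another gene overlap 51.6% of the exonic length of ITGB3, and fragments on several genes were not counted), ITGB6 and NID1 in all libraries of LNCaP:C4-2, and LAMA1 and SPARC in all libraries of 22Rv1. In LNCaP:C4-2 the level of METTL3 ran from 26.5 to 35.9 CPM with siSCR and from 17.5 to 22.7 CPM with siMETTL3, and from 45.4 to 51.6 CPM against 21.2 to 25.4 CPM in 22Rv1, so the knockdown was partial in both. The log2 change of METTL3 with knockdown was −0.61 (vehicle) and −0.57 (R1881) in LNCaP:C4-2, and −0.89 and −1.18 in 22Rv1. With R1881 in LNCaP:C4-2 it was short of 1.5-fold, so METTL3 itself was not called there by the rule given below. FKBP5, a gene known to respond to androgen, was 80.6 to 90.8 CPM with siSCR and vehicle and 916 to 1051 CPM with R1881 in LNCaP:C4-2, and 177 to 189 CPM against 1786 to 1926 CPM in 22Rv1. KLK3, which encodes prostate-specific antigen, rose in LNCaP:C4-2 with siSCR (log2 4.08) and was flat in 22Rv1 (−0.01). The share of mitochondrial counts ran from 6.46% to 9.73% in LNCaP:C4-2. With R1881 in that line it was 7.08%, 9.73% and 9.69% with siSCR and 6.46%, 6.77% and 7.05% with siMETTL3, without overlap. With vehicle it was 8.02%, 8.08% and 8.48% with siSCR and 9.60%, 6.89% and 7.03% with siMETTL3 (replicates 1 to 3 in order). In 22Rv1 it moved with R1881. With siSCR it was 6.12% to 6.89% in vehicle and 4.96% to 5.28% with R1881, and with siMETTL3 it was 5.04% to 7.45% and 3.93% to 4.24%. The part of this share in the R1881 and knockdown results of either line was not tested. All 8 luminal epithelial markers (among them KRT8, EPCAM and HOXB13) were above the floor in every group of both lines.

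R1881 lowered more of these genes than it raised in every one of the 4 comparisons of R1881 with vehicle. ITGA1 and ITGB4 fell in all 4, and LAMA3 rose in all 4. TNC and CAV1 fell in 22Rv1, and in LNCaP:C4-2, where they were called too, both were near or at the floor with R1881 and passed the filter on low counts through the vehicle groups. A gene is said here to have risen or fallen when its Benjamini-Hochberg adjusted p in edgeR's quasi-likelihood test, adjusted over all genes tested, was under 0.05 and its change at least 1.5-fold (0.585 on the log2 scale). In LNCaP:C4-2 with siSCR, 15 of the 42 members that passed the filter on low counts changed, with 3 higher and 12 lower. Among all 16435 genes tested there, 15.1% changed, 7.39% higher and 7.72% lower. The median log2 fold change was −0.14 over the members and −0.03 over all genes. Fewer cells of a type and less RNA per cell cannot be told apart in such bulk libraries. With siMETTL3 in the same line, 10 of 42 members changed (10.6% of all genes, 5.09% higher and 5.54% lower), 2 higher and 8 lower, with a median of −0.14 against −0.00. In 22Rv1 with siSCR, 18 of 48 members tested changed (13.8% of all 17865 genes, 4.19% higher and 9.64% lower), 6 higher and 12 lower, with a median of −0.29 against 0.00. In 22Rv1 with siMETTL3, 21 of 48 members changed (13.5% of all genes, 4.18% higher and 9.29% lower), 5 higher and 16 lower, with a median of −0.27 against 0.00. A low gene that passed the filter only through its higher group had to differ, so the counts describe the members tested and not all 53.

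**Figure D1:**
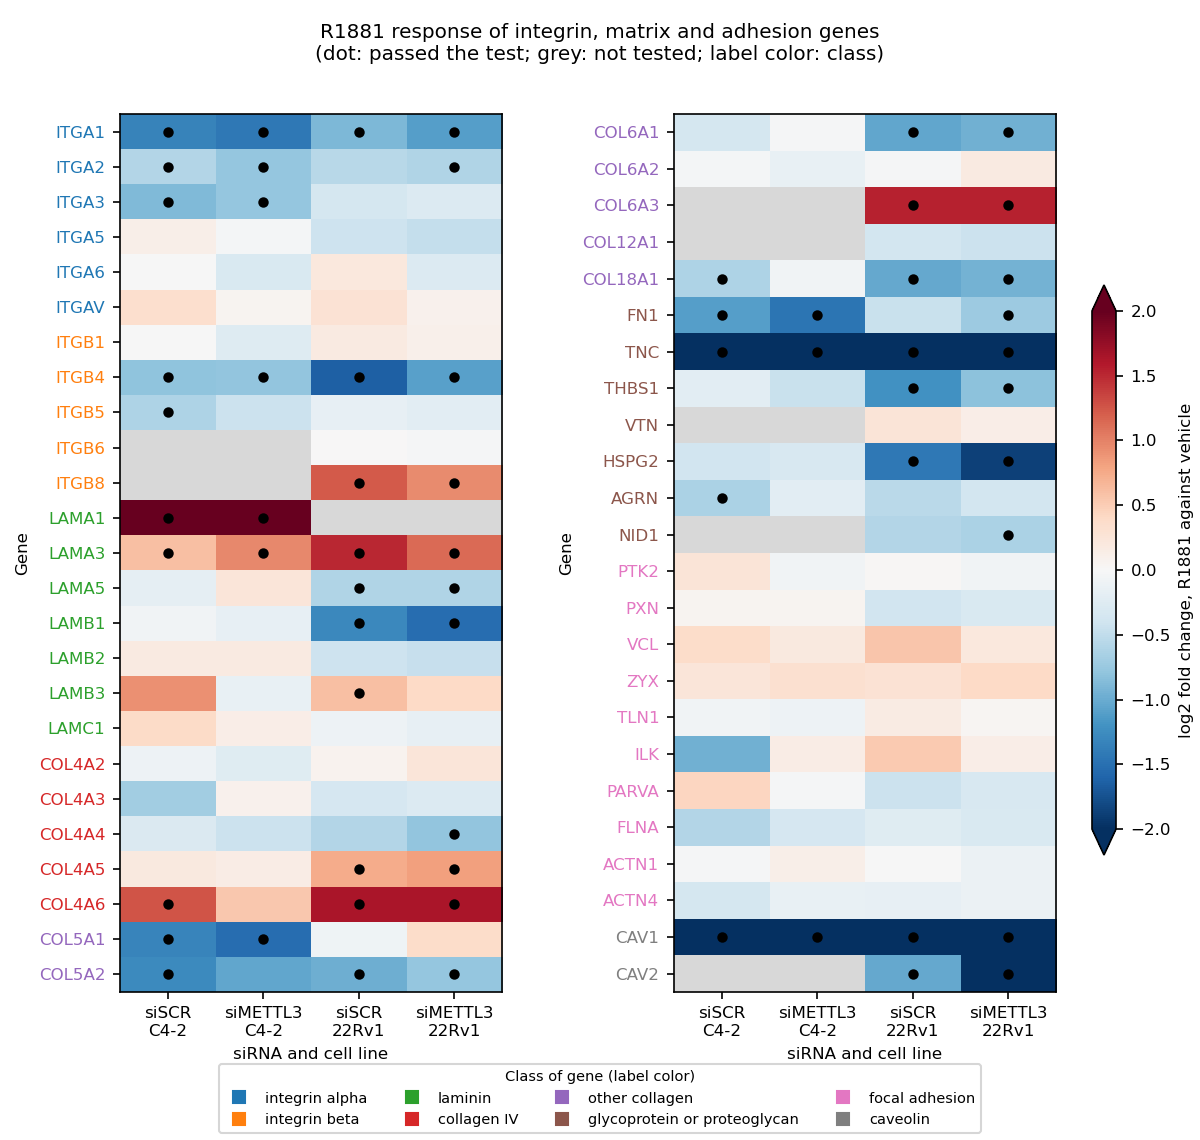
Heat map of the log2 fold change of R1881 against vehicle, from edgeR, for the 49 members tested in at least one line (rows, colored labels mark the class) in 4 comparisons (columns, 3 against 3 libraries each). Dots mark genes that passed the test, grey cells were not tested, and the color scale ends at −2 and 2. TNC and CAV1 lie beyond the lower end in all 4 columns, and the rows of the focal adhesion proteins hold no dot.

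Among the integrin alpha subunits, 3 that pair with ITGB1 to bind collagen or laminin fell, ITGA1, ITGA2 and ITGA3. ITGA1, a collagen receptor subunit (GRCh38 chr5:52787896-52959210), was 3.75, 4.19 and 4.97 CPM with siSCR and vehicle and 1.18, 1.94 and 2.00 CPM with R1881 in LNCaP:C4-2. In 22Rv1 it was 39.8, 39.6 and 50.7 CPM with vehicle and 19.3, 24.7 and 25.7 CPM with R1881. In both lines every R1881 library lay below every vehicle library. The log2 fold change was −1.33 ± 0.27 (SE; edgeR adjusted p = 0.0018) in LNCaP:C4-2 and −0.90 ± 0.11 (adjusted p = 1.6e-06) in 22Rv1. With siMETTL3 it was −1.43 ± 0.29 and −1.10 ± 0.11. ITGA2, another collagen receptor subunit and the neighbor of ITGA1 on chromosome 5 (chr5:52989326-53094779), fell by 0.59 ± 0.14 on the log2 scale with siSCR in LNCaP:C4-2 and by 0.77 ± 0.14 with siMETTL3. In 22Rv1 the change of ITGA2 was −0.55 ± 0.09 with siSCR, short of 1.5-fold, and −0.60 ± 0.09 with siMETTL3. The call of ITGA2 with siSCR in LNCaP:C4-2 was lost without siSCR vehicle replicate 3 or siSCR R1881 replicate 1 (log2 as small as −0.46), with RLE size factors, without the count filter and in DESeq2. In 22Rv1 the call with siMETTL3 was lost without siMETTL3 vehicle replicate 2 or siMETTL3 R1881 replicate 1 (log2 −0.54 at the smallest). ITGA3, a laminin receptor subunit, was 16.4 to 19.7 CPM with vehicle and 7.65 to 13.4 CPM with R1881 (siSCR, LNCaP:C4-2; log2 −0.88 ± 0.18), and −0.78 ± 0.18 with siMETTL3. In 22Rv1 the ITGA3 change was −0.35 ± 0.10 with siSCR, under 1.5-fold.

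The other alpha subunits, ITGAV, ITGA5 and ITGA6, were not called in any comparison of R1881 with vehicle. ITGAV, which pairs with several beta subunits, was 104 to 118 CPM with vehicle and 127 to 152 CPM with R1881 in LNCaP:C4-2 (log2 0.34 ± 0.12), and 97.5 to 119 against 126 to 134 CPM in 22Rv1 (0.28 ± 0.08). Its R1881 libraries lay above its vehicle libraries in both lines, but neither change reached 1.5-fold. ITGA5, the fibronectin receptor subunit, and ITGA6, a laminin receptor subunit, did not pass the test in any comparison of R1881 with vehicle. ITGB1, the partner of most alpha subunits and the most abundant integrin subunit per length in both lines, did not pass either, with 320 to 346 CPM both with vehicle and with R1881 in LNCaP:C4-2 (siSCR), where the ranges were the same.

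Among the beta subunits, ITGB4, which pairs with ITGA6 in hemidesmosomes, fell in all 4 comparisons. It was 12.5, 13.2 and 11.5 CPM with siSCR and vehicle and 7.69, 6.65 and 7.07 CPM with R1881 in LNCaP:C4-2. In 22Rv1 it was 2.39, 2.57 and 1.91 against 0.484, 0.890 and 0.8501 CPM. The groups did not overlap in either line. The log2 fold changes with siSCR were −0.80 ± 0.15 (edgeR adjusted p = 0.00090) in LNCaP:C4-2 and −1.63 ± 0.30 (adjusted p = 0.00027) in 22Rv1, and with siMETTL3 −0.79 ± 0.14 and −1.09 ± 0.28. ITGB5, a vitronectin receptor subunit, fell with siSCR in LNCaP:C4-2 (log2 −0.61 ± 0.12), from 63.5 to 65.8 CPM with vehicle to 37.8 to 47.8 CPM with R1881. Without siSCR R1881 replicate 3 that change was −0.53 and under 1.5-fold. ITGB8, which with ITGAV activates latent TGF-beta, rose in 22Rv1 from 8.10, 7.33 and 9.10 CPM to 19.2, 19.2 and 19.3 CPM with siSCR (log2 1.23 ± 0.12, edgeR adjusted p = 3.7e-08) and by 0.95 ± 0.12 with siMETTL3. The 3 R1881 libraries of ITGB8 were closer to each other than the vehicle libraries were, and all above them. In LNCaP:C4-2 ITGB8 stayed under 1 CPM and was not tested. ITGB6, also a subunit that binds latent TGF-beta, was 1.39 to 1.92 CPM with vehicle and 1.49 to 1.72 CPM with R1881 in 22Rv1 (siSCR), and its groups overlapped.

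**Figure D2:**
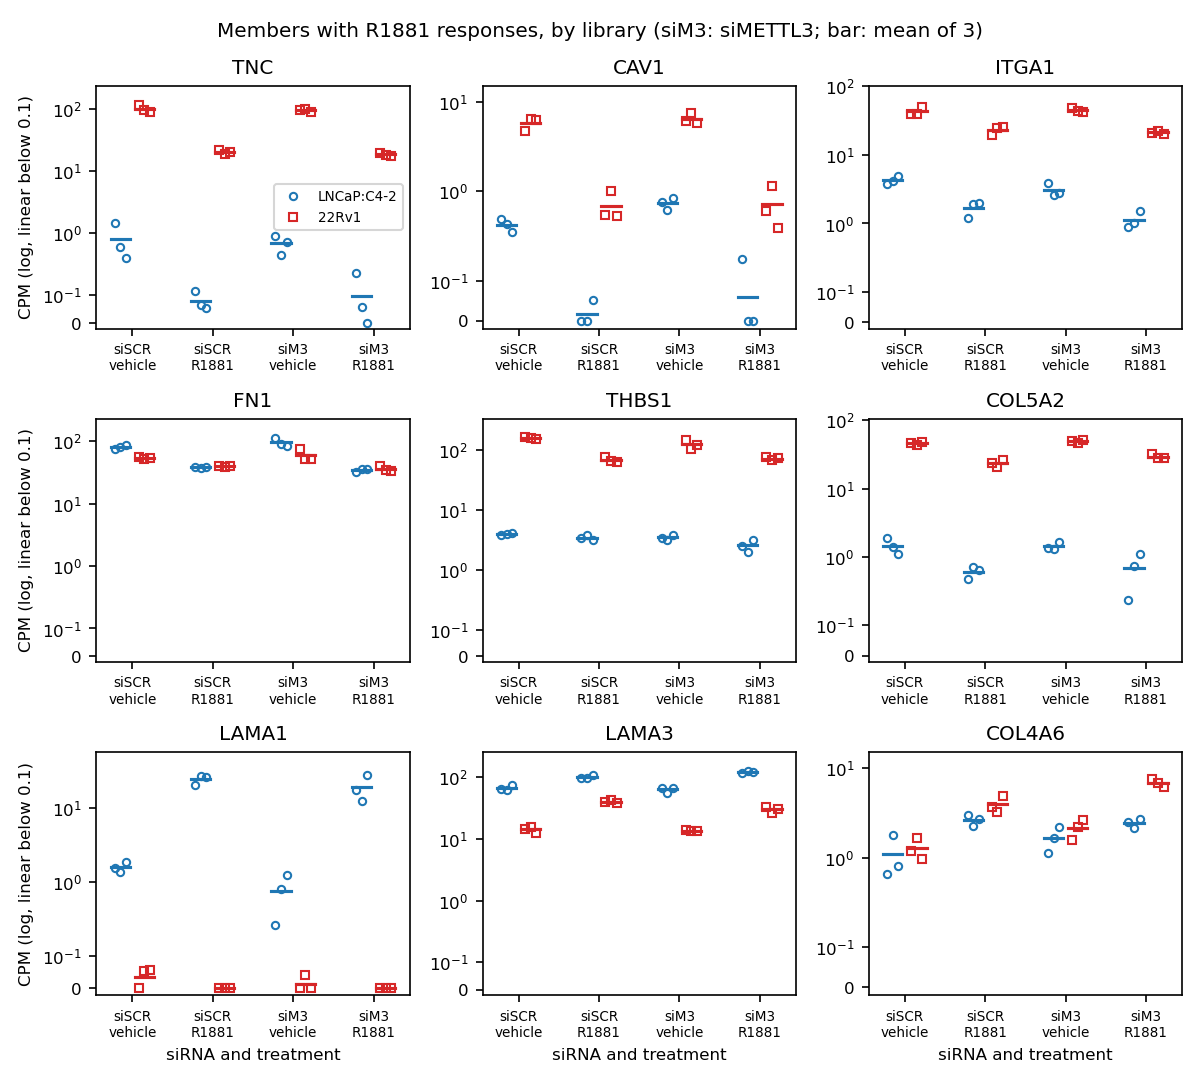
CPM of 9 members in each of the 24 libraries (y axis logarithmic above 0.1 and linear below) by siRNA and treatment (x axis), with LNCaP:C4-2 as blue circles, 22Rv1 as red squares and bars at the mean of 3 libraries. TNC, CAV1, ITGA1 and FN1 were lower with R1881 in both lines. COL5A2 was lower in 22Rv1, and in LNCaP:C4-2 it was called with siSCR alone. LAMA1 rose in LNCaP:C4-2 from under 2 CPM to 12.1 CPM or more.

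The laminin alpha chains LAMA1 and LAMA3 rose with R1881, LAMA1 in LNCaP:C4-2 and LAMA3 in both lines. LAMA1, an alpha chain known mainly from embryonic basement membranes (chr18:6941744-7117814, minus strand), was 1.55, 1.34 and 1.85 CPM with siSCR and vehicle and 19.9, 26.9 and 25.5 CPM with R1881 in LNCaP:C4-2. With siMETTL3 it was 0.255, 0.781 and 1.23 CPM against 17.1, 12.1 and 27.7 CPM. The R1881 libraries were all above the vehicle libraries, by 3.92 ± 0.33 on the log2 scale with siSCR (edgeR adjusted p = 4.1e-07) and 4.62 ± 0.38 with siMETTL3 (adjusted p = 2.9e-07). In 22Rv1 no library held more than 1 count of LAMA1. LAMA3, the alpha chain of epithelial laminins at hemidesmosomes, rose in both lines. It went from 63.8, 62.9 and 74.1 to 99.4, 97.6 and 110 CPM in LNCaP:C4-2 (siSCR; log2 0.60 ± 0.10, adjusted p = 0.00043) and from 14.6, 15.7 and 12.4 to 40.6, 42.3 and 38.9 CPM in 22Rv1 (1.5 ± 0.10, adjusted p = 1.7e-10). With siMETTL3 its change was 0.95 ± 0.10 and 1.13 ± 0.10. In LNCaP:C4-2 with siSCR the change of LAMA3 lay close to 1.5-fold and dropped under it without siSCR vehicle replicate 1, siSCR vehicle replicate 2 or siSCR R1881 replicate 3 (log2 down to 0.55) and with library size alone (0.49).

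Other laminin chains changed in 22Rv1. LAMB1, a widely used beta chain, was 39.3, 37.0 and 38.1 CPM with siSCR and vehicle and 15.2, 15.5 and 16.2 CPM with R1881 in that line, where the R1881 libraries lay far below the vehicle libraries and close together. Its log2 fold change was −1.30 ± 0.09 with siSCR (edgeR adjusted p = 2.3e-10) and, with siMETTL3, −1.53 ± 0.09. In LNCaP:C4-2 LAMB1 was 69.0 to 77.9 CPM with vehicle and 64.4 to 72.6 CPM with R1881, with overlapping groups. LAMA5, the alpha chain most abundant per length in both lines, fell in 22Rv1 by 0.60 ± 0.11 with either siRNA. The call of LAMA5 with siSCR was lost without siSCR vehicle replicate 1, siSCR vehicle replicate 2 or siSCR R1881 replicate 3 (log2 −0.49 at the smallest), and with siMETTL3 without siMETTL3 vehicle replicate 2 or siMETTL3 R1881 replicate 2 (−0.50 at the smallest). LAMB3, the beta chain that joins LAMA3 in epithelial laminin, rose in 22Rv1 with siSCR from 8.28 to 9.71 CPM to 13.4 to 14.3 CPM (0.59 ± 0.12). That change was under 1.5-fold without siSCR vehicle replicate 3 or siSCR R1881 replicate 3 (0.53 at the lowest) and with library size alone. LAMB2 and LAMC1 did not pass the test in any comparison of R1881 with vehicle, and LAMA4 stayed at 0.452 CPM or less in all libraries.

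Collagen IV genes lie in head-to-head pairs, each pair with its start sites close together on opposite strands, so that both genes share 1 upstream interval. In the RefSeq table of GRCh38.p14 the starts lay 127 bases apart for COL4A1 and COL4A2 on chromosome 13, 419 bases for COL4A4 and COL4A3 on chromosome 2, and 380 bases for COL4A6 and COL4A5 on chromosome X. The stretches before the COL4A2 and COL4A5 starts that hold no exon of the counting annotation are shown because the first pair had 1 silent and 1 expressed gene and both genes of the COL4A6 and COL4A5 pair rose with R1881 in 22Rv1. Capitals mark CCAAT boxes (CCAAT or its reverse complement ATTGG) and GC boxes (GGGCGG or CCGCCC). Among the first 250 bases before the most upstream start of 27167 genes, 33.1% held a CCAAT box and 42.1% a GC box, and among the 44 members with an entry the former was in 12 and the latter in 33.
COL4A2 chr13:110307158-110307266 (plus strand, GRCh38.p14): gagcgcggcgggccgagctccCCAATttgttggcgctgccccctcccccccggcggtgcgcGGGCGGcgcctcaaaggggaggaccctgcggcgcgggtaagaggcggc
COL4A5 chrX:108439588-108439837 (plus strand, GRCh38.p14): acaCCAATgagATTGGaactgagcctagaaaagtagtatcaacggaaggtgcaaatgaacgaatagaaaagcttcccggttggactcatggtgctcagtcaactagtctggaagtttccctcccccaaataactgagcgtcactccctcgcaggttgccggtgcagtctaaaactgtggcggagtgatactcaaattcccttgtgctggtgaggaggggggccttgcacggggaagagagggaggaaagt
The COL4A5 stretch held 2 CCAAT boxes, 1 on each strand, and no GC box, and the COL4A2 stretch held 1 of each.

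COL4A5 and COL4A6, whose chains form a network of their own in several epithelial basement membranes, both rose with R1881 in 22Rv1. COL4A5 was 43.6, 43.6 and 44.6 CPM with siSCR and vehicle and 75.9, 74.8 and 70.5 CPM with R1881 (log2 0.74 ± 0.08, edgeR adjusted p = 2.3e-07). COL4A6 was 1.19, 1.66 and 0.981 against 3.71, 3.28 and 4.94 CPM (1.63 ± 0.24, adjusted p = 2.2e-05). All R1881 libraries of both genes lay above all vehicle libraries. With siMETTL3 the changes were 0.83 ± 0.08 for COL4A5 and 1.64 ± 0.21 for COL4A6. In LNCaP:C4-2 with siSCR, COL4A6 was 0.662, 1.82 and 0.810 CPM with vehicle and 3.02, 2.26 and 2.74 CPM with R1881 (1.26 ± 0.34, adjusted p = 0.013), while COL4A5 was 43.9 to 47.9 against 49.1 to 55.9 CPM (0.19, not called). The COL4A6 call in LNCaP:C4-2 was lost without siSCR vehicle replicate 1 (1.00, adjusted p = 0.070) or siSCR vehicle replicate 3 (1.09, adjusted p = 0.054), and with siMETTL3 COL4A6 did not pass (0.54).

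The other pairs had no called rise. COL4A3 and COL4A4, whose products join COL4A5 in the kidney glomerulus, were 19.01 to 22.6 and 6.47 to 8.39 CPM with siSCR and vehicle in 22Rv1, and 15.4 to 17.6 and 4.41 to 5.62 CPM with R1881. Both had lower R1881 libraries than vehicle libraries, with log2 fold changes of −0.34 ± 0.11 and −0.58 ± 0.16 that stayed under 1.5-fold, and COL4A4 passed with siMETTL3 (−0.79 ± 0.16, edgeR adjusted p = 0.00045). COL4A2, a chain of the main collagen IV network, was detected in every library (20 counts or more) and did not pass the test with R1881, while no library held more than 2 counts of COL4A1.

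Among the other collagens, COL5A2, a chain of the fibril-forming collagen V, was 46.0, 44.0 and 48.1 CPM with siSCR and vehicle and 23.5, 20.8 and 25.9 CPM with R1881 in 22Rv1. The groups did not overlap, with a log2 fold change of −0.98 ± 0.09 (edgeR adjusted p = 3.1e-08), and −0.77 ± 0.09 with siMETTL3. In LNCaP:C4-2, where COL5A2 was 1.10 to 1.88 CPM with vehicle and 0.474 to 0.710 CPM with R1881 (siSCR), it fell by 1.27 ± 0.42 with an adjusted p of 0.037. Leaving out any library of that comparison other than siSCR vehicle replicate 3 ended the call, with log2 values from −1.43 to −1.05 and adjusted p up to 0.15. With siMETTL3 in that line COL5A2 was not called. COL5A1, the partner chain, fell in both LNCaP:C4-2 comparisons. It was 9.49, 10.1 and 6.65 CPM with siSCR and vehicle against 5.03, 2.26 and 3.27 CPM with R1881 (−1.32 ± 0.23, adjusted p = 0.00058) and −1.52 ± 0.22 with siMETTL3. In 22Rv1 the COL5A1 libraries overlapped (2.45 to 4.52 against 2.61 to 3.56 CPM).

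The collagen VI chains moved apart. COL6A1 (chr21:45981737-46005050) fell in 22Rv1 from 12.8, 11.2 and 10.5 CPM to 5.43, 5.95 and 5.47 CPM with siSCR (log2 −1.04 ± 0.14, edgeR adjusted p = 4.4e-06), and by 0.97 ± 0.14 with siMETTL3. COL6A3, the longest chain of the same trimer, rose in that line from 0.468, 0.856 and 0.818 CPM to 2.21, 1.89 and 2.18 CPM (1.54 ± 0.34, adjusted p = 0.0013), and by 1.53 ± 0.33 with siMETTL3. For both genes the R1881 and vehicle libraries were fully apart. COL6A2, the neighbor of COL6A1 on chromosome 21 (chr21:46098097-46132849), did not pass in any comparison of R1881 with vehicle. COL18A1, the basement membrane collagen from which endostatin is cleaved, passed with siSCR in LNCaP:C4-2 (−0.62 ± 0.21, adjusted p = 0.041) and in 22Rv1 with siSCR (−1.03 ± 0.37, adjusted p = 0.035) and siMETTL3 (−0.95 ± 0.36, adjusted p = 0.045). Each of these COL18A1 calls was lost on leaving out any of 4 of the 6 libraries compared. The exceptions were siSCR vehicle replicate 3 and siSCR R1881 replicate 1 in LNCaP:C4-2 and in 22Rv1 with siSCR, and siMETTL3 vehicle replicate 1 and siMETTL3 R1881 replicate 2 with siMETTL3. The adjusted p then rose to at most 0.15, 0.13 and 0.22. In DESeq2 the siMETTL3 call in 22Rv1 was lost too (adjusted p = 0.051). Exons of other genes overlap 16.4% of the exonic length of COL18A1, and fragments on several genes were not counted. COL12A1, a collagen on the surface of fibrils, was tested in 22Rv1 and not called with R1881.

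Of the glycoproteins, fibronectin (FN1), tenascin-C (TNC) and thrombospondin-1 (THBS1) fell with R1881 in 1 or both lines, and the stretches before their starts are shown for that reason, with the capitals as above, together with a TEAD motif (GGAATG or CATTCC, present in 11.96% of the 27167 upstream windows and in 7 of the 44 of members).
FN1 chr2:215436173-215436252 (minus strand, GRCh38.p14): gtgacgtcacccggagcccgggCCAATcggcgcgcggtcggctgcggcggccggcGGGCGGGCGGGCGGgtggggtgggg
TNC chr9:115118258-115118407 (minus strand, GRCh38.p14): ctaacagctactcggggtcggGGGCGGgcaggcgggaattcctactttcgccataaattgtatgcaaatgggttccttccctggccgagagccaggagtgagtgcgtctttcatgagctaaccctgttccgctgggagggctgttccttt
THBS1 chr15:39580829-39581078 (plus strand, GRCh38.p14): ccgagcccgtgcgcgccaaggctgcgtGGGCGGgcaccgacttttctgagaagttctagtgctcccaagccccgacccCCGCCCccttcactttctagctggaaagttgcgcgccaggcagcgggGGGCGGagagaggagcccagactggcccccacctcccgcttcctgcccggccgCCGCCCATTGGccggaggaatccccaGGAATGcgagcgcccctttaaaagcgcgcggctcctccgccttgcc
The FN1 stretch held 3 overlapping GC boxes and 1 CCAAT box, the TNC stretch 1 GC box, and the THBS1 stretch 4 GC boxes, 1 CCAAT box and 1 TEAD motif. A TATA box (TATAAA or TTTATA) and an AP-1 site (TGACTCA or TGAGTCA), searched for in the same windows, were in none of the 5 stretches, in 2 and 1 of the 44 windows, and in 11.2% and 4.17% of all. These letter matches describe the windows only.

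TNC, a matrix protein of wounds and tumor stroma that weakens adhesion to fibronectin, was 116, 95.4 and 87.4 CPM with siSCR and vehicle and 21.9, 18.7 and 20.4 CPM with R1881 in 22Rv1. The R1881 libraries lay far below the vehicle libraries. The log2 fold change was −2.30 ± 0.10 (edgeR adjusted p = 1.7e-13), and −2.38 ± 0.11 with siMETTL3. In LNCaP:C4-2 TNC was near the floor, with 1.43, 0.590 and 0.405 CPM with vehicle and 0.118, 0.0646 and 0.0528 CPM with R1881. These were 44 counts against 4 over the groups, a log2 ratio of −3.39 (95% interval for counting error, −5.32 to −1.93). Without siSCR vehicle replicate 1 the fitted change was −2.58 in place of −3.27. With siMETTL3 the fitted change in LNCaP:C4-2 was −2.73 (adjusted p = 0.020), and it was −4.26 without siMETTL3 R1881 replicate 1. The latter call was lost without siMETTL3 R1881 replicate 2 (adjusted p = 0.084) or siMETTL3 R1881 replicate 3 (adjusted p = 0.072).

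FN1, the ligand of the ITGA5 and ITGB1 dimer, was 74.9, 79.6 and 87.7 CPM with siSCR and vehicle and 38.3, 37.4 and 38.3 CPM with R1881 in LNCaP:C4-2. With siMETTL3 it was 113, 90.8 and 83.2 against 31.99, 35.8 and 35.5 CPM. The groups were apart with either siRNA, with log2 fold changes of −1.10 ± 0.12 (edgeR adjusted p = 4.6e-06) and −1.46 ± 0.12 (adjusted p = 2.5e-07). In 22Rv1 the change was −0.45 ± 0.11 with siSCR, under 1.5-fold, and −0.73 ± 0.11 with siMETTL3. The latter was −0.53 without siMETTL3 vehicle replicate 1. THBS1, a secreted activator of TGF-beta, fell in 22Rv1 from 161, 159 and 152 CPM to 76.8, 64.4 and 62.7 CPM with siSCR (−1.22 ± 0.10, adjusted p = 2.3e-09) and by 0.81 ± 0.10 with siMETTL3, and the treated and untreated libraries were apart. In LNCaP:C4-2 THBS1 was 3.81 to 4.16 CPM with vehicle and 3.11 to 3.81 CPM with R1881, and did not pass.

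The proteoglycans and linkers of the basement membrane each fell in 1 line. HSPG2 fell in 22Rv1 by 1.43 ± 0.48 with siSCR (edgeR adjusted p = 0.027), from 1.04, 1.34 and 0.545 CPM to 0.592, 0.167 and 0.319 CPM, and by 1.87 ± 0.48 with siMETTL3 (adjusted p = 0.0046). The siSCR libraries of HSPG2 overlapped, and its siSCR call was lost without siSCR vehicle replicate 1, siSCR vehicle replicate 2, siSCR R1881 replicate 2 or siSCR R1881 replicate 3 (adjusted p up to 0.14). HSPG2 held 2 to 32 counts per library in 22Rv1 and passed the filter on low counts mainly through the vehicle groups. A call of it could therefore hardly be a rise. AGRN fell in LNCaP:C4-2 with siSCR from 368 to 450 CPM to 242 to 306 CPM (−0.63 ± 0.15, adjusted p = 0.0055), a change under 1.5-fold without siSCR vehicle replicate 1 or siSCR R1881 replicate 3 (−0.56). NID1 fell in 22Rv1 with siMETTL3 (−0.63 ± 0.15), and its change with siSCR was −0.58 ± 0.15, from 8.21 to 9.36 CPM to 5.43 to 6.23 CPM. Without siMETTL3 vehicle replicate 2 or siMETTL3 R1881 replicate 2 the NID1 change with siMETTL3 was under 1.5-fold (−0.51 at the smallest). VTN (vitronectin) was tested in 22Rv1 and did not pass, and SPARC was too low to be tested.

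None of the 10 genes for proteins of the focal adhesion plaque passed the test with R1881 in any of the 4 comparisons, with edgeR or with DESeq2. Among all genes, edgeR called 15.1%, 10.6%, 13.8% and 13.5% (siSCR and siMETTL3 in LNCaP:C4-2, then in 22Rv1). For as few as 10 genes, no call is near these shares. In the same order, 4, 3, 6 and 5 of them had an unadjusted p under 0.05, where 36.1%, 29.4%, 42.6% and 42.2% of all genes did. VCL (vinculin) had the largest change past an adjusted p of 0.05 in the direction of a rise, with 108, 106 and 118 CPM with vehicle and 164, 158 and 166 CPM with R1881 in 22Rv1 (siSCR; log2 0.55 ± 0.07, edgeR adjusted p = 1.8e-06). Its R1881 libraries were all higher than its vehicle libraries, and the change lay just under 1.5-fold. FLNA (filamin A) was 277 to 284 CPM with vehicle and 173 to 202 CPM with R1881 in LNCaP:C4-2 (siSCR; −0.58 ± 0.11, adjusted p = 0.0012), also apart and also just under 1.5-fold. ILK, the integrin-linked kinase, cannot be read from these counts, because exons of other genes overlap 78.5% of its exonic length and shared fragments were left out.

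Of the caveolins, membrane proteins of caveolae that associate with integrins, CAV1 fell in both lines and CAV2 in 22Rv1. CAV1 (chr7:116524785-116561184) was 4.73, 6.47 and 6.32 CPM with siSCR and vehicle and 0.538, 1.00 and 0.531 CPM with R1881 in 22Rv1, without overlap (log2 −3.08 ± 0.28, edgeR adjusted p = 1.7e-08), and −3.19 ± 0.28 with siMETTL3. In LNCaP:C4-2 the R1881 groups were at the floor. With siSCR the CAV1 groups held 23 counts with vehicle and 1 with R1881, a log2 ratio of −4.45 (95% interval for counting error, −9.81 to −1.83), and with siMETTL3 38 and 3 counts, a ratio of −3.68 (−6.02 to −2.03). The fitted change of CAV1 moved from −4.03 to −5.91 without siSCR R1881 replicate 3 and from −3.51 to −6.69 without siMETTL3 R1881 replicate 1. CAV2, the neighboring gene (chr7:116287380-116508541), fell in 22Rv1 from 1.35, 1.93 and 1.25 to 0.968, 0.445 and 0.797 CPM with siSCR (−1.03 ± 0.39, adjusted p = 0.047) and by 2.26 ± 0.43 with siMETTL3 (adjusted p = 0.00032). The siSCR groups of CAV2 did not overlap, but its siSCR call was lost without siSCR vehicle replicate 1, siSCR vehicle replicate 2, siSCR R1881 replicate 2 or siSCR R1881 replicate 3 (adjusted p up to 0.19). CAV2 held 1 to 40 counts per library in 22Rv1 and passed the filter on low counts mainly through the vehicle groups. In LNCaP:C4-2 CAV2 was too low to be tested, and its siSCR counts went the other way. The vehicle group, at the floor, held 6 counts and the R1881 group 19. The log2 ratio was 1.74 (95% interval for counting error, 0.36 to 3.35).

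The difference between the lines in the R1881 response was tested directly in a fit of all 24 libraries for the siSCR groups, where an adjusted p under 0.05 sufficed. It passed for 15 of 49 members (16.8% of all 19437 genes, 7.78% higher and 9.02% lower), 6 with a more positive and 9 with a more negative response in 22Rv1. LAMB1 had the smallest adjusted p, with a difference (22Rv1 minus LNCaP:C4-2) of −1.23 ± 0.12 on the log2 scale (edgeR adjusted p = 1.6e-08), followed by LAMA3 with a difference of 0.90 ± 0.14 (adjusted p = 3.9e-05). The difference was −1.003 ± 0.20 for THBS1 and −0.69 ± 0.19 for COL6A1, and for FN1, COL4A5 and COL5A1 it was 0.65 ± 0.17, 0.55 ± 0.12 and 1.23 ± 0.34. FN1 and COL5A1 had their larger fall in LNCaP:C4-2. Among the plaque proteins PARVA, which binds ILK, passed. It was 3.81 to 5.32 CPM with vehicle and 5.86 to 6.26 CPM with R1881 in LNCaP:C4-2 and 27.7 to 32.5 against 21.6 to 24.2 CPM in 22Rv1, so that R1881 libraries were the higher in the first line and the lower in the second.

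**Figure D3:**
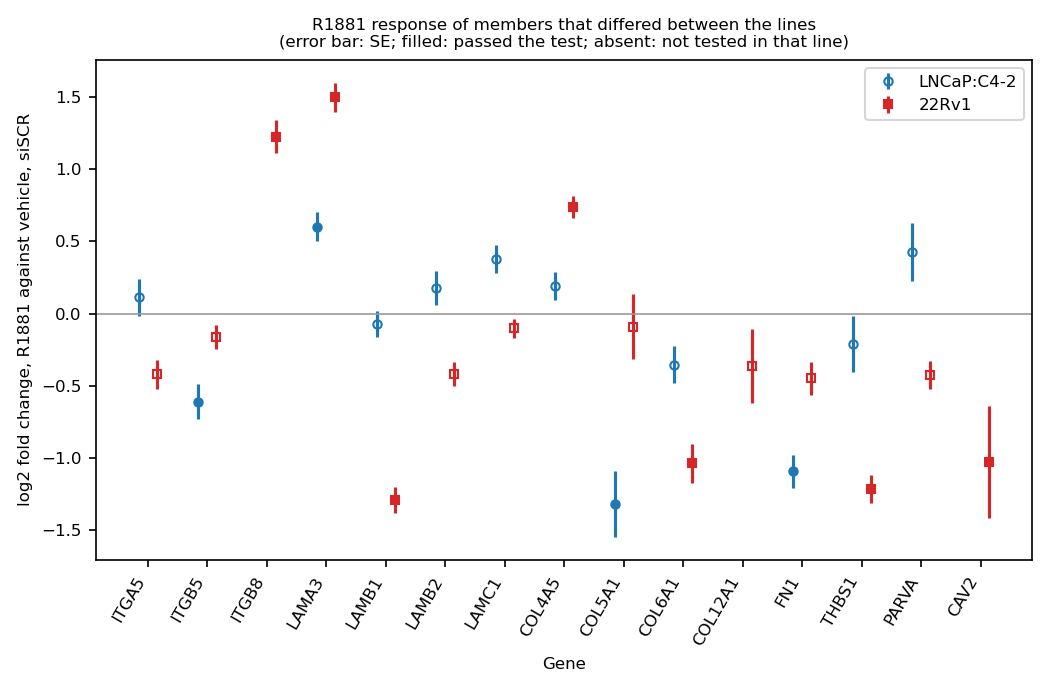
Log2 fold change of R1881 against vehicle with siSCR (y axis, with SE bars) for the 15 members whose response differed between the lines (x axis), from the fit of each line (3 against 3 libraries), with LNCaP:C4-2 as blue circles and 22Rv1 as red squares. Filled symbols passed the test in that line. LAMB1, THBS1 and COL6A1 have filled symbols below 0 in 22Rv1 and open symbols nearer to 0 in LNCaP:C4-2.

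METTL3 knockdown changed few members in the fits of all libraries, and those called in LNCaP:C4-2 were higher. In vehicle, 3 of 42 members rose and none fell (1.2% of all genes changed, 0.828% higher and 0.371% lower). They were the fibronectin receptor subunit ITGA5, the hemidesmosome subunit ITGB4 and the laminin gamma chain LAMC1. ITGA5 was 29.2, 32.6 and 29.8 CPM with siSCR and 45.4, 49.0 and 48.8 CPM with siMETTL3 (log2 0.63 ± 0.13, edgeR adjusted p = 0.026). ITGB4 was 12.5, 13.2 and 11.5 against 18.3, 20.98 and 19.97 CPM (0.66 ± 0.14, adjusted p = 0.029). LAMC1 was 108, 108 and 113 against 190, 163 and 149 CPM (0.60 ± 0.10, adjusted p = 0.0098). For all 3 genes every siMETTL3 library lay above every siSCR library. Their changes were stable in size when libraries were left out (0.59 to 0.68, 0.61 to 0.71 and 0.50 to 0.67), but each call was lost on leaving out any of 5 of the 6 libraries. The call was kept only without siMETTL3 vehicle replicate 1 for ITGA5 and ITGB4 and only without siMETTL3 vehicle replicate 3 for LAMC1, and otherwise the adjusted p reached up to 0.15, 0.18 and 0.069. Library size alone also took LAMC1 under 1.5-fold (0.56).

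With R1881 in LNCaP:C4-2, 2 of 42 members rose with knockdown (0.7% of all genes changed, 0.28% higher and 0.42% lower), and DESeq2 called 3. Without siSCR R1881 replicate 1, 9 of 42 members were called, 8 higher and 1 lower, as the calls over all genes went from 115 to 1497. ITGB4 was 7.69, 6.65 and 7.07 CPM with siSCR and 12.1, 12.9 and 8.86 CPM with siMETTL3 (log2 0.67 ± 0.15, edgeR adjusted p = 0.048). ITGB5 was 47.8, 41.8 and 37.8 against 66.0, 65.3 and 59.97 CPM (0.59 ± 0.12, adjusted p = 0.037). Both were higher in every siMETTL3 library. The ITGB4 call was lost with RLE size factors and without siSCR R1881 replicate 2 or 3 or siMETTL3 R1881 replicate 1 or 2 (log2 0.55 to 0.81, adjusted p up to 0.25). The ITGB5 call was lost with RLE size factors, in DESeq2 and without any library other than siSCR R1881 replicate 1 (0.51 to 0.66, adjusted p up to 0.19). Fibronectin, whose receptor subunit ITGA5 rose in vehicle, was not called with knockdown in either treatment.

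In 22Rv1 with vehicle, none of 48 members passed with edgeR or DESeq2 (0.202% of all genes changed, 0.0616% higher), and 9 had an unadjusted p under 0.05 (14.6% of all genes). With R1881 in 22Rv1, 2 of 48 members changed, close to the 3.29% of all genes that did. ITGA6 fell from 4.09, 5.84 and 4.94 CPM to 2.80, 3.46 and 2.82 CPM (log2 −0.72 ± 0.20, edgeR adjusted p = 0.021), and COL4A6 rose from 3.71, 3.28 and 4.94 CPM to 7.54, 6.92 and 6.20 CPM (0.77 ± 0.20, adjusted p = 0.013). Neither pair of groups overlapped. The ITGA6 call was lost without siSCR R1881 replicate 2 or 3 or siMETTL3 R1881 replicate 1 or 3 (adjusted p up to 0.11), and the COL4A6 call without siSCR R1881 replicate 2 (0.65, adjusted p = 0.075) or siMETTL3 R1881 replicate 1 (0.70, adjusted p = 0.072).

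**Figure D4:**
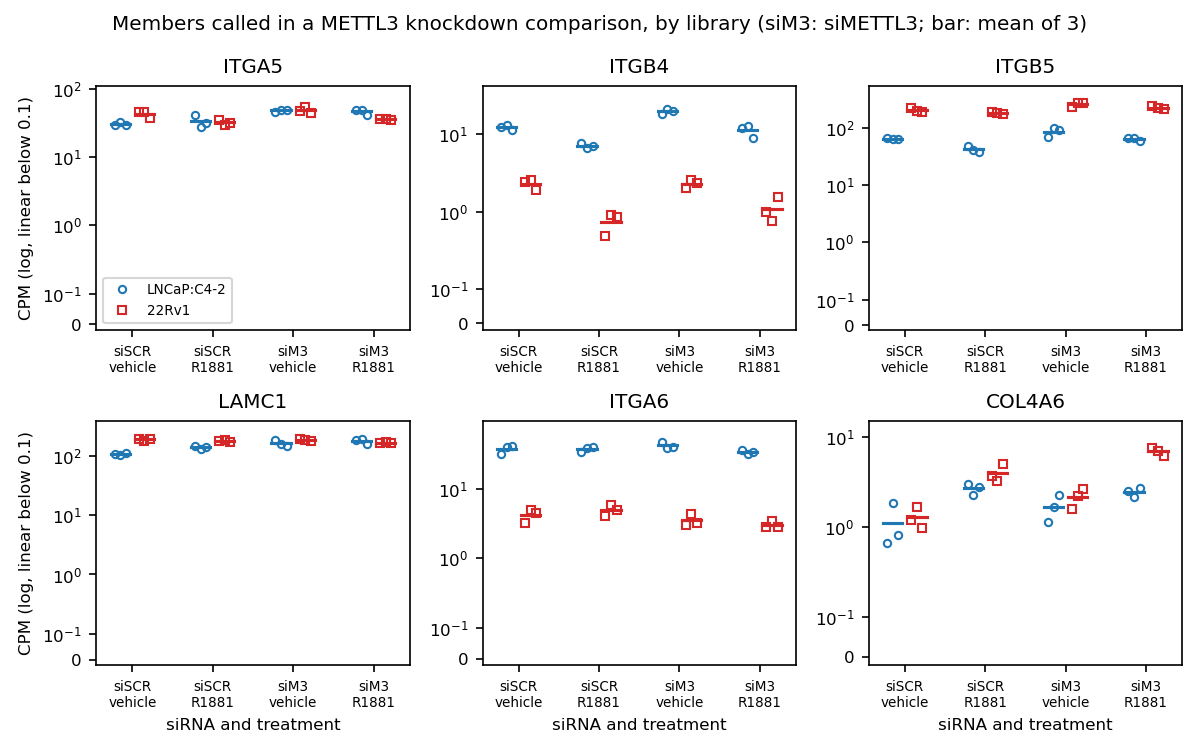
CPM of the 6 members called in a knockdown comparison in each of the 24 libraries (y axis logarithmic above 0.1 and linear below) by siRNA and treatment (x axis), with LNCaP:C4-2 as blue circles, 22Rv1 as red squares and bars at the mean of 3 libraries. In LNCaP:C4-2 the siMETTL3 libraries of ITGA5, ITGB4, ITGB5 and LAMC1 lie above the siSCR libraries in vehicle.

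Whether knockdown altered the R1881 response was tested as an interaction within each line. With edgeR no member passed at an adjusted p under 0.05 in LNCaP:C4-2 (4 of 42 had an unadjusted p under 0.05, as did 12.4% of all genes, and 0% of all genes passed) or in 22Rv1 (3 of 48, and 6.16% of all genes, and 0.0168% of all genes passed), and none passed with DESeq2. The difference between the lines in the vehicle knockdown effect passed for 1 of 49 members (0.458% of all genes, 0.0875% higher), LAMC1, with a difference (22Rv1 minus LNCaP:C4-2) of −0.66 ± 0.12 on the log2 scale (adjusted p = 0.0077). LAMC1 was 184 to 200 CPM with siSCR and 180 to 195 CPM with siMETTL3 in vehicle-treated 22Rv1, with overlapping groups. Without siSCR vehicle replicate 1 of LNCaP:C4-2 the adjusted p was 0.054.

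The 2 lines differed in many members without R1881 and without METTL3 knockdown. Between the siSCR vehicle groups, which were transfected and given ethanol, 39 of 49 members differed (59.2% of all 19437 genes, 31.2% higher and 27.9% lower), 20 higher in 22Rv1 and 19 higher in LNCaP:C4-2, and the median log2 difference was 0.03 over the members and over all genes. These counts include genes that passed the filter on low counts through 1 line alone and so had to differ. ITGB6, NID1, COL12A1, VTN and CAV2 were at the floor in this LNCaP:C4-2 group, and LAMA1 in that of 22Rv1. Among integrin alpha subunits ITGAV led per length in both lines, at 13.5 ± 0.89 RPKM (SD, n = 3) in LNCaP:C4-2 and 12.9 ± 1.4 RPKM in 22Rv1. In LNCaP:C4-2 it was followed by ITGA6 at 5.79 ± 0.80 and ITGA2 at 5.55 ± 0.64 RPKM, which did not differ beyond their spread, and by ITGA5, ITGA3 and ITGA1 at 4.03, 1.82 and 0.232 RPKM. In 22Rv1 it was followed by ITGA2 at 6.34 ± 0.58 and ITGA5 at 5.66 ± 0.63 RPKM, again within their spread, and ITGA6 was last at 0.654 ± 0.14 RPKM. ITGA6 was lower in 22Rv1 (log2 difference −3.14 ± 0.16), as was its partner ITGB4 (−2.43 ± 0.18), while ITGA1 was higher (3.33 ± 0.16, edgeR adjusted p = 5.4e-16). Among beta subunits, ITGB1 led at 54.7 ± 2.47 and 46.2 ± 4.95 RPKM, and ITGB5 was 10.0 ± 0.18 RPKM in LNCaP:C4-2 and 31.3 ± 2.9 RPKM in 22Rv1. ITGB6, at 1.39 to 1.92 CPM in 22Rv1 and 0 counts in LNCaP:C4-2, was at least 3.24 log2 units higher in 22Rv1 against a floor of 3 counts per library. ITGB8 was 7.33 to 9.10 CPM in 22Rv1 and 0.0537 to 0.752 CPM in LNCaP:C4-2, a difference of 4.67 ± 0.34 that became 6.18 without siSCR vehicle replicate 3 of LNCaP:C4-2.

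Laminin chains differed in the same way. Per length, LAMA5 was the leading alpha chain in both lines, at 24.7 ± 2.85 RPKM in LNCaP:C4-2 and 4.72 ± 0.768 RPKM in 22Rv1 (log2 difference of levels −2.39 ± 0.12). LAMA3 was next at 4.95 ± 0.459 and 1.06 ± 0.125 RPKM. LAMB2 and LAMB1 were close in LNCaP:C4-2, at 10.2 ± 1.3 and 8.86 ± 0.61 RPKM, and apart in 22Rv1, at 19.3 ± 1.8 and 4.69 ± 0.14 RPKM. LAMC1, the only gamma chain among the members, was 13.02 ± 0.35 and 23.2 ± 1.1 RPKM. LAMB3 was near the floor in LNCaP:C4-2 (0.347 to 0.483 CPM) and 8.28 to 9.71 CPM in 22Rv1, a difference of 4.46 ± 0.22. LAMA1 was held by 85 counts in the siSCR vehicle group of LNCaP:C4-2 and 2 in that of 22Rv1, a log2 ratio of −5.47 (95% interval for counting error, −8.54 to −3.57).

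Collagens differed in both directions. COL6A1 was the most abundant of all 53 genes per length in vehicle-treated LNCaP:C4-2 with siSCR, at 65.6 ± 8.7 RPKM, and 2.15 ± 0.22 RPKM in 22Rv1, a log2 difference of −4.93 ± 0.14 (edgeR adjusted p = 3.8e-21). Its neighbor COL6A2 was 17.3 ± 2.5 against 0.270 ± 0.077 RPKM (−5.99 ± 0.26, adjusted p = 2.5e-17). COL5A2 showed the opposite order, 0.204 ± 0.055 RPKM in LNCaP:C4-2 and 6.43 ± 0.29 RPKM in 22Rv1 (4.97 ± 0.18). COL4A5 was the leading collagen IV chain in both lines, at 5.27 ± 0.23 and 5.03 ± 0.067 RPKM, with a difference of −0.07 ± 0.09 that did not pass. The COL4A3 and COL4A4 pair was higher in 22Rv1, by 4.45 ± 0.19 and 3.88 ± 0.35, and COL4A2 lower (−1.28 ± 0.25). COL18A1 was lower in 22Rv1 (−3.81 ± 0.26). COL12A1 held 103 counts in the 22Rv1 group and 2 in the LNCaP:C4-2 group, a log2 ratio of 5.63 (interval 3.74 to 8.69).

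The glycoproteins separated the lines too. THBS1 and TNC were 17.2 ± 0.53 and 10.3 ± 1.5 RPKM in 22Rv1 and 0.431 ± 0.021 and 0.0841 ± 0.057 RPKM in LNCaP:C4-2. The log2 differences were 5.31 ± 0.14 for THBS1 and 6.93 ± 0.22 for TNC, and the latter was 7.66 without siSCR vehicle replicate 1 of LNCaP:C4-2. NID1 held 493 counts in the 22Rv1 group and 0 in the LNCaP:C4-2 group, at least 5.72 log2 units higher against the floor. VTN held 73 against 2 counts (log2 ratio 5.13, interval 3.23 to 8.20). HSPG2 and AGRN were lower in 22Rv1 (−5.11 ± 0.23 and −1.503 ± 0.14). FN1 was 4.66 ± 0.38 RPKM in LNCaP:C4-2 and 3.11 ± 0.16 RPKM in 22Rv1, a difference of −0.58 ± 0.12 that stayed under 1.5-fold.

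Plaque proteins included 3 with no call. ACTN4, PTK2 and TLN1 did not differ by 1.5-fold, with ACTN4 at 56.3 ± 2.3 and 59.1 ± 4.9 RPKM and PTK2 at 7.64 ± 0.40 and 7.81 ± 0.53 RPKM. PXN, FLNA, VCL, ZYX and ACTN1 were lower in 22Rv1 (log2 difference −1.83 ± 0.11, −1.497 ± 0.11, −1.13 ± 0.08, −0.95 ± 0.13 and −0.83 ± 0.08), and PARVA was higher by 2.76 ± 0.15. ILK passed as lower (−2.49 ± 0.53, and −1.82 without siSCR vehicle replicate 1 of LNCaP:C4-2), with the limit on its counts given above. CAV1 was higher in 22Rv1 by 3.76 ± 0.35, at 4.73 to 6.47 CPM against 0.347 to 0.497 CPM, and CAV2 held 85 counts there against 6 (log2 ratio 3.77, interval 2.58 to 5.25).

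**Figure D5:**
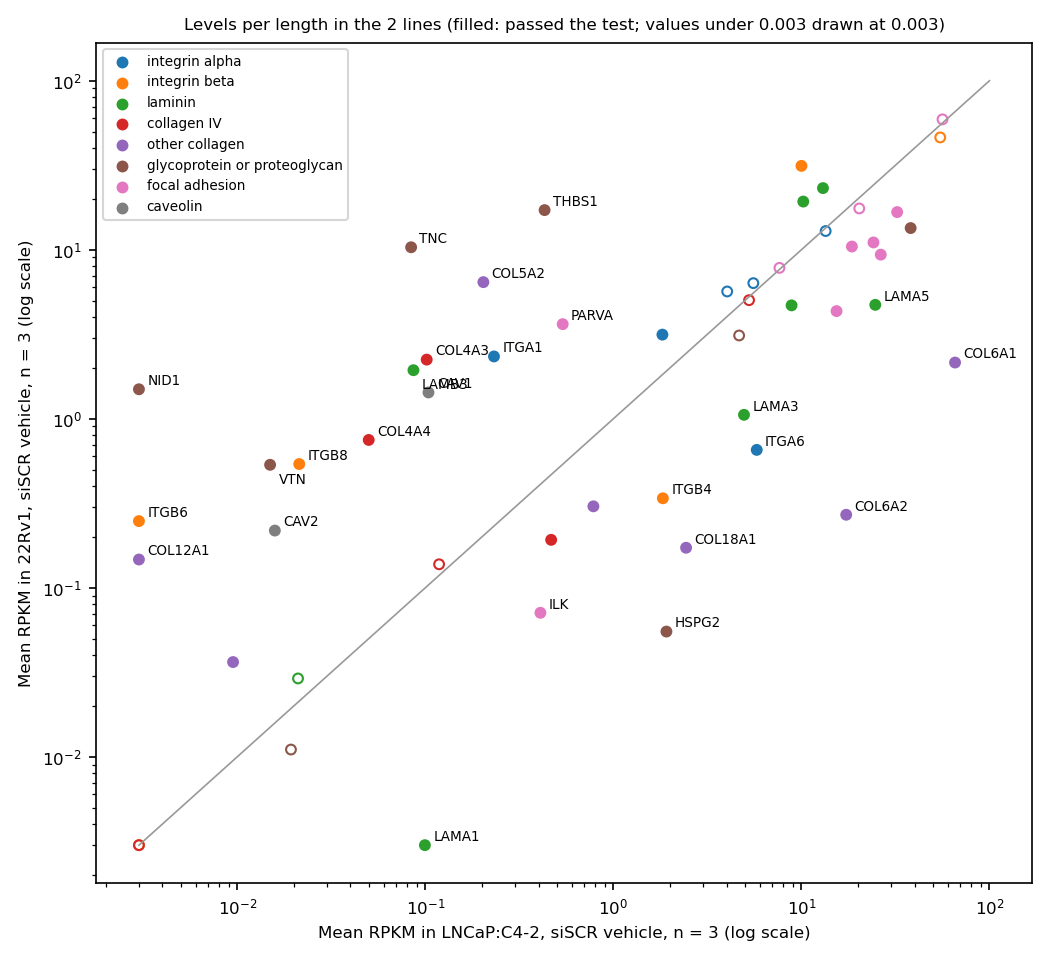
Mean RPKM with siSCR and vehicle in LNCaP:C4-2 (x axis) and 22Rv1 (y axis), 3 libraries each, on log scales, 1 point per member colored by class, with values under 0.003 drawn at 0.003 and names where the means differ over 4-fold. Filled points passed the test. COL6A1, COL6A2 and HSPG2 lie far below the diagonal, and TNC, THBS1, COL5A2 and NID1 far above it.

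A further list of 91 genes of matrix and adhesion biology that are not members was read beside these results. With R1881 and siSCR, 8 of 67 tested rose and 9 fell in LNCaP:C4-2, and 3 of 73 rose and 14 fell in 22Rv1, beside 15.1% and 13.8% of all genes changed. With siMETTL3 the counts were 4 and 5, then 1 and 13, beside 10.6% and 13.5%. LOX, which cross-links collagen, rose in all 4 comparisons, with log2 changes in LNCaP:C4-2 of 3.69 ± 0.16 (siSCR) and 2.69 ± 0.15 (siMETTL3), and of 1.00 ± 0.20 and 1.37 ± 0.20 in 22Rv1. TIMP2, an inhibitor of matrix metalloproteinases, fell in all 4 (log2 from −0.61 to −1.52). With knockdown in vehicle, 6 of 67 changed in LNCaP:C4-2 and all 6 rose (1.2% of all genes changed, 0.828% higher and 0.371% lower). Among them were the collagen hydroxylases P4HA1, P4HA2 and PLOD2 (0.92 ± 0.15, 0.99 ± 0.15 and 1.17 ± 0.16) and the docking protein NEDD9 (0.71 ± 0.13). In the other 3 knockdown comparisons none of the list passed with edgeR. With R1881 in LNCaP:C4-2 DESeq2 called 5 and 26 of 67 had an unadjusted p under 0.05 (28.6% of all genes). In 22Rv1 DESeq2 called 0, with 11 of 73 (vehicle) and 26 of 73 (R1881) at an unadjusted p under 0.05, beside 14.6% and 32% of all genes. For the interaction of R1881 and siMETTL3, edgeR called 0 of the list in either line. DESeq2 called 5 of 67 in LNCaP:C4-2 and 0 of 73 in 22Rv1. An unadjusted edgeR p under 0.05 was found for 10 and 5 of them, beside 12.4% and 6.16% of all genes.

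Markers of other cell types were low or absent, with exceptions that moved with R1881. Of 8 fibroblast and smooth muscle markers, 3 to 6 were above the floor in a group, with COL1A1 the main one and COL1A2 at the floor in every group. Their summed level in 22Rv1 was 29.2 to 36.4 CPM with siSCR and vehicle and 20.2 to 20.9 CPM with R1881, and 34.9 to 35.9 against 18.8 to 21.04 CPM with siMETTL3, alongside the matrix genes that fell there. In LNCaP:C4-2 the sums were 44.6 to 67.5 against 42.5 to 51.6 CPM with siSCR and 63.9 to 75.0 against 68.4 to 68.9 CPM with siMETTL3. Of 4 basal epithelial markers, KRT5 was at the floor in every group and TP63 in every group of LNCaP:C4-2. The other markers, KRT14 and KRT15, rose in LNCaP:C4-2, where the sum of the list was up to 0.0537 CPM with siSCR and vehicle and 1.00 to 1.74 CPM with R1881 (siMETTL3, up to 0.112 against 1.21 to 2.39 CPM), alongside LAMA1 and LAMA3. KRT14 and KRT15 were at the floor in the vehicle groups of that line and passed the filter on low counts through the R1881 groups. A call of either could therefore only be a rise. Of 4 endothelial markers, all were at the floor in 22Rv1, and in LNCaP:C4-2 VWF took the sum from 3.09 to 3.49 CPM with siSCR and vehicle to 6.26 to 6.44 CPM with R1881 (siMETTL3, 2.23 to 3.40 against 4.54 to 12.5 CPM). The 4 leukocyte markers summed to 2.08 CPM or less in every library. The part of these markers in the results was not tested.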

How the data were processed

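RNA-seq counts of 24 libraries were used. According to the submitters' processing notes and the file headers, the authors used Trim Galore (cutadapt, FastQC) for trimming, STAR for alignment to GRCh38, and featureCounts 1.5.0-p1 for counting against Ensembl release 83. Raw fragment counts per gene were deposited, with no normalization. No strand option was set, so reads of a gene and of an antisense partner cannot be told apart, and fragments on several genes or places were dropped by default.

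Of the 60675 genes, 56558 were named from a table that pairs Ensembl identifiers with symbols. Groups came from the sample titles. edgeR 4.0.16 (R 4.3.3; limma 3.58.1) was run on the 12 libraries of a line, or on all 24 for comparisons between lines, with TMM, filterByExpr (count minimum 10, total minimum 15), glmQLFit and glmQLFTest. SEs are the log2 fold change over the root of F. Calls needed a Benjamini-Hochberg adjusted p under 0.05 and 1.5-fold, without the fold for interactions. Ratios at the floor carry exact binomial 95% intervals, which cover counting error only. DESeq2 1.42.0, RLE factors, library size alone, no count filter, a replicate block, no fold threshold and leaving out each library were tried. The scripts were tested on simulated data. All 53 members are named by class, and full values are given for those with the largest changes of their class. The members and lists were chosen with earlier results of these data known. Promoter sequences are from RefSeq (GRCh38.p14; 44 of 53 members matched), with the counting annotation on GRCh38. Tables and plots were made in Python 3.11.15 with pandas 2.3.3, scipy 1.17.1 and matplotlib 3.10.9.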

Additional observations from a re-analysis of the deposited data

Results flagged for a closer look

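The 16 results listed here passed edgeR's quasi-likelihood test of the difference between the lines (22Rv1 minus LNCaP:C4-2, log2 scale, Benjamini-Hochberg adjusted p under 0.05 over all genes). For the R1881 response with siSCR, the difference was −0.54 for ITGA5 (adjusted p = 0.030), 0.45 for ITGB5 (0.033) and 2.22 for ITGB8 (0.039). Among laminins it was 0.90 for LAMA3, −1.23 for LAMB1, −0.60 for LAMB2 (adjusted p = 0.0058) and −0.48 for LAMC1 (0.0043). Among collagens it was 0.55 for COL4A5 (0.0025), 1.23 for COL5A1 (0.012), −0.69 for COL6A1 (0.011) and −2.94 for COL12A1 (0.024). It was 0.65 for FN1 (0.010), −1.003 for THBS1 (0.00071), −0.86 for PARVA (0.0043) and −2.70 for CAV2 (0.017).

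ITGB8, COL12A1 and CAV2 were near or at the floor in LNCaP:C4-2. The ITGB8 difference was 0.73 (adjusted p = 0.70) without siSCR vehicle replicate 3 of LNCaP:C4-2, and the call was lost in 9 of the 12 fits that left out 1 library. The ITGB5 call was lost in 10 of these fits, the ITGA5 call in 5, and the COL12A1 and CAV2 calls in 2 each, all without turning direction. The ITGB5 call was also lost with RLE size factors (adjusted p = 0.070) and in DESeq2 (0.059), and the ITGA5 call with library size alone (0.051). The LAMC1 difference in the effect of knockdown in vehicle was −0.66 (adjusted p = 0.0077).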

How the results depend on the processing

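Over 1482 values of single called members under the alternatives, 1353 kept their call, 129 lost it and 0 changed direction. The calls made in every fit numbered 8 of 15 (R1881, siSCR, LNCaP:C4-2), 9 of 10 (siMETTL3), 13 of 18 and 16 of 21 (22Rv1), 38 of 39 for the lines at baseline, 10 of 15 for the line difference in R1881 response, and none of the knockdown calls. Members called for knockdown with R1881 in LNCaP:C4-2 numbered 2, against 0 with RLE size factors, 4 without the count filter and 0 with a replicate block, and 9 without siSCR R1881 replicate 1. Without the fold threshold, 33 members were called for R1881 with siSCR in 22Rv1 in place of 18, 32 with siMETTL3 in place of 21, and 9 for knockdown with R1881 in place of 2. The cause of these shifts was not tested, other than that the last alternative drops a criterion.

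With 1 library left out at a time, the number of members called ranged from 10 to 14 (R1881, siSCR) and 9 to 10 (siMETTL3) in LNCaP:C4-2, and from 14 to 20 and 17 to 20 in 22Rv1. For knockdown the range was 0 to 2 (vehicle) and 0 to 9 (R1881) in LNCaP:C4-2, and 0 to 1 and 0 to 2 in 22Rv1. It was 39 to 40 for the lines at baseline, 10 to 18 for the line difference in R1881 response and 0 to 1 for that in knockdown, and 0 for both interactions.

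The replicate numbers did not pair the libraries: deviations of same-numbered libraries had a mean correlation of −0.0173 (−0.337 to 0.195, 18 pairs) in LNCaP:C4-2 and −0.0100 (−0.228 to 0.152, 18 pairs) in 22Rv1. With a replicate block, COL5A2 and COL18A1 were no longer called for R1881 with siSCR in LNCaP:C4-2 (13 called), nor CAV2 (siSCR) or COL18A1 (siMETTL3) in 22Rv1, COL6A3 between the lines, or ITGB5 in the line difference. LAMA4, COL4A1, ITGB3 and SPARC were too low to be tested for R1881 in either line.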
